A study of Homo sapiens with 4 samples.

Results

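Kinesins are motor proteins that move along microtubules, and their messages were followed in U87MG glioblastoma cells with and without silencing of CASP2. All probe sets (groups of probes that report 1 transcript) with a single gene symbol that begins with KIF and a digit, or KIFC and a digit, were taken. This gave 46 of the 32321 probe sets of the array, for 42 of 18404 genes with a single symbol. Of these, 1 was KIF25-AS1, an antisense RNA that encodes no motor, which leaves 45 probe sets for 41 kinesin genes. They were split by function into 13 mitotic kinesins (16 probe sets), 17 transport kinesins (18 probe sets) and 11 other kinesins of cilia, centrioles, signalling or unsettled class (11 probe sets). KIF4B and KIF28P had no probe set of their own, and 4 probe sets shared by a KIF gene and another gene were left out.

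Each kinesin couples ATP hydrolysis in a motor domain to a force on the microtubule. Mitotic kinesins push spindle poles apart, move and align chromosomes, shorten microtubule ends and build the midzone where the cell divides, and their messages are largely made in the G2 and M phases of the cell cycle. Transport kinesins carry vesicles, mitochondria, endosomes and other cargo towards microtubule plus ends, or in a few cases towards minus ends, and are made in dividing and resting cells alike. CASP2 encodes caspase-2, a protease of the initiator class. The comparison asked whether the kinesin messages differ between CASP2-silenced and control cells, and whether the mitotic and the transport kinesins differ in this.

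U87MG is an established human glioblastoma line, and both groups were transfected with an siRNA, so all arrays carry the effects of transfection. The control siRNA group and the CASP2 siRNA group had 2 arrays each, labelled as biological replicates 1 and 2, with total RNA hybridized to Affymetrix Human Gene 1.0 ST arrays and summarized by RMA to 1 log2 value per probe set and array. The labels name 1 oligo supplier, whose control oligo is, by the methods, a mutated form of the CASP2 oligo, so the groups compare 1 siRNA with 1 control in 1 line. The labels do not say whether the replicates are separate cultures, and p-values measure only the spread between these arrays. All changes below are log2 differences, CASP2 siRNA minus control siRNA, from a limma fit over all probe sets with 95% confidence intervals. With 2 arrays against 2, an exact permutation test of a single value cannot go below p = 0.333.

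CASP2 itself was at 10.74 and 10.69 on the control arrays and at 8.79 and 8.52 on the silenced arrays, a log2 change of -2.06 (SE 0.13, 95% interval -2.40 to -1.72), or 4.17-fold lower. It passed an unadjusted limma p under 0.05, and its Benjamini-Hochberg adjusted p over all probe sets was 0.9999. At an adjusted p under 0.05 the fit called 0.0% of the probe sets, and 0.693% passed the study's thresholds of a fold above 1.5 with an unadjusted p under 0.05. The second CASP2 siRNA array stood apart: its upper quartile was 8.58 against 8.66 to 8.69 on the other arrays, its median 6.28 against 6.18 to 6.21, and the SD of the difference between replicates over all probe sets was 0.348 in the CASP2 siRNA group against 0.205 in the control group. Of the astroglial and glioblastoma markers, VIM, CD44 and FN1 were above the upper quartile of the control arrays, GFAP and NES near the median and S100B below the lower quartile. Among markers of other cell types, PTPRC and AIF1 of immune cells were below the lower quartile and all 3 endothelial markers below the median, whereas CD68 was above the upper quartile.

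The stretches that the promoters of the mitotic kinesins share were read first. Cell cycle genes of the G2 and M phases often carry a cell cycle homology region (CHR), here the letters TTTGAA or TTTAAA, and the CCAAT box bound by NF-Y. Both were searched on both strands, so that TTCAAA and ATTGG also count, in RefSeq windows (GRCh38.p14) from 250 bases before to 50 after the transcription start, which were given for 33 of the 41 kinesin genes. The 120 bases before the start are printed 5′ to 3′ on the strand of the gene, with CHR and CCAAT letters in capitals. KIF23, KIF11, KIF4A, KIF20A and KIF18A are shown as bright spindle and cytokinesis kinesins whose printed bases hold both motifs. KIF22, which was brighter than KIF4A on the control arrays (9.81 against 9.57), has no CHR and is not shown. The printed stretches therefore do not stand for the whole class.
KIF23 (chr15:69414229-69414348, plus strand): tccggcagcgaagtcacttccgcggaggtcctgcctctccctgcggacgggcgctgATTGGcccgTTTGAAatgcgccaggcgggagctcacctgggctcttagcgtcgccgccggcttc
KIF11 (chr10:92593010-92593129, plus strand): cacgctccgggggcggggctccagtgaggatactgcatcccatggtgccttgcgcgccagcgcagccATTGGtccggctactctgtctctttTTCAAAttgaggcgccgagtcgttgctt
KIF4A (chrX:70289984-70290103, plus strand): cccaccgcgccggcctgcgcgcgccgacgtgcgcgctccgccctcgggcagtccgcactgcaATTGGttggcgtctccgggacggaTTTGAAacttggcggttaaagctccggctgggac
KIF20A (chr5:138178992-138179111, plus strand): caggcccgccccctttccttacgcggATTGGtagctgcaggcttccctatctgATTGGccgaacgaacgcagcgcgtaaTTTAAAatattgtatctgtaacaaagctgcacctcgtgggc
KIF18A (chr11:28108157-28108276, minus strand): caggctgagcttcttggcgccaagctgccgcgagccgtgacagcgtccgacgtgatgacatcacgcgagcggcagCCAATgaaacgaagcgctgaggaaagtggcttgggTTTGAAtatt
KIF3B, KIF1C and KIF7 are shown as kinesins of the other classes, whose changes are described further on.
KIF3B (chr20:32277531-32277650, plus strand): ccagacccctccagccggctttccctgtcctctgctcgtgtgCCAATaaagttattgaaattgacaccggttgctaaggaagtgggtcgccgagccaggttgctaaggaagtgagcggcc
KIF1C (chr17:4997830-4997949, plus strand): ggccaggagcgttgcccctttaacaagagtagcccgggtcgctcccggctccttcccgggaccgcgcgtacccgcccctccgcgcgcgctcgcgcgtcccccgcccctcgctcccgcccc
KIF7 (chr15:89655468-89655587, minus strand): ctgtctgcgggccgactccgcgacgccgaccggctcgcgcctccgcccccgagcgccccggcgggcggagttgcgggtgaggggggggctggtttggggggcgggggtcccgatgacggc

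A CHR was found in 11 of 13 mitotic kinesins (84.6%), in 2 of 12 transport kinesins (16.7%) and in 0 of 8 other kinesins, against 27.9% of all 27305 genes with a window and 24.7% of the protein-coding ones. KIF22 and KIF2B were the mitotic kinesins without it. The CCAAT letters were in 10 of 13 mitotic (76.9%), 4 of 12 transport (33.3%) and 3 of 8 other kinesins (37.5%), against 39.7% of all genes. Both stood in 1 window in 9 of 13 mitotic kinesins (69.2%) and in 1 of 12 transport kinesins (8.33%), KIF5B, against 11.2% of all genes, and no match of one shared a base with a match of the other. All 11 mitotic genes had a CHR whose first base lay between positions -60 and 40 from the start (from -55 in KIF23 to 31 in KIF20B), and KIF23 and KIF14 had another match farther out, at -211 and -198, whereas 0 transport kinesins did, with KIF5B at -140 and KIF16B at -241, against 9.86% of all genes. These bounds were chosen after the positions were seen. A match describes letters and not a bound site, and the letters were not linked to any change.

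**Figure D1:**
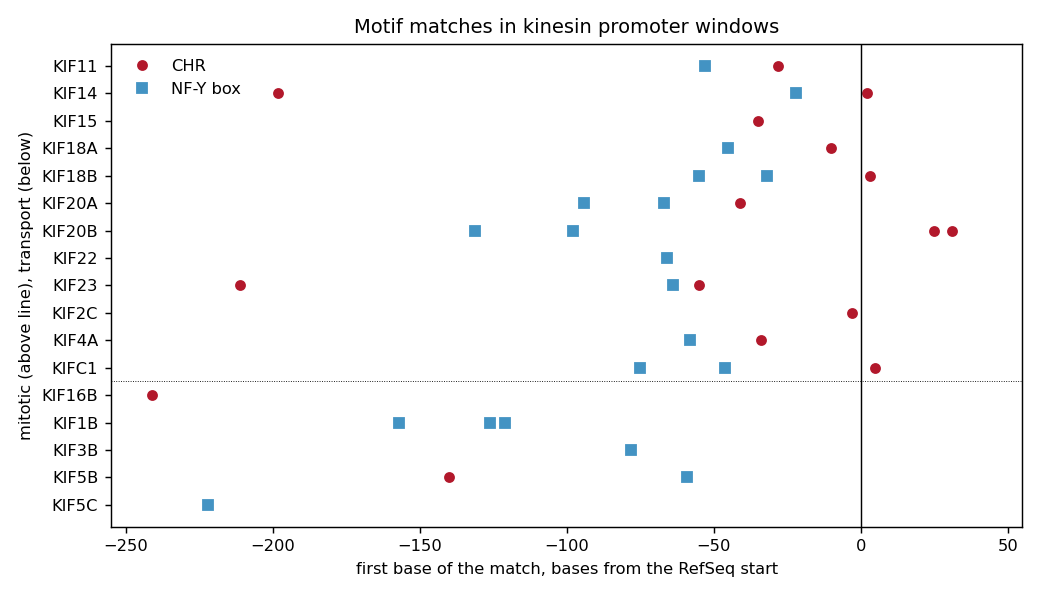
Positions of CHR and CCAAT letters in the promoter windows of mitotic and transport kinesin genes, in bases from the transcription start (x axis). Each gene has 1 row, and genes without a match and the other kinesins are not drawn. Each of the 11 mitotic kinesins with CHR letters has them within -55 to 31 of the start, where no transport kinesin has them. KIF23 (-211) and KIF14 (-198) have another match farther out.

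In control cells the mitotic kinesins were mostly bright. Since the log2 values of different probe sets are not on 1 scale of abundance, each gene (by the probe set with the highest mean) was placed against the quartiles of all probe sets of the control arrays, which were 4.40, 6.20 and 8.67. Of the mitotic kinesins 10 of 13 lay above the upper quartile, of the transport kinesins 9 of 17 and of the other kinesins 1 of 11, against 25.0% of all probe sets and 31.0% of those with a single symbol. The class medians in the control arrays were 9.35, 8.76 and 6.67. The mitotic median exceeded the transport median by 0.64 and 0.55 on the control arrays and by 0.93 and 0.64 on the silenced arrays. The transport median itself was at 8.70 and 8.81 on the control arrays and at 8.41 and 8.33 on the silenced arrays. A gap between median levels is not a difference of median changes, which is given further on.

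The highest mitotic signals came from the cytokinesis motors KIF23 (11.05, above 94.1% of probe sets), the motor of the centralspindlin complex, and KIF20A (10.81, above 92.9%). They were followed by KIF18A, a kinesin-8 that damps chromosome movement (10.02), KIF11, the kinesin-5 that pushes the poles apart (9.93), and the chromokinesin KIF22 (9.81). KIF2B was the only mitotic kinesin below the median of the array, at 5.81. Among transport kinesins, the ubiquitous kinesin-1 heavy chain KIF5B was at 12.03, above 97.6% of probe sets, followed by KIF1C (10.01), KIF5C (9.67), KIF3C (9.47) and KIF1B (9.18). KIF1A, which carries synaptic vesicle precursors in neurons, and KIF17 were the transport kinesins below the median, at 5.77 and 5.90. KIF2A, a microtubule depolymerase of spindle poles and neurites, was at 10.81 and was the only kinesin outside both classes above the upper quartile, with KIF7 next at 8.06, KIF27 at 7.82, KIF24 at 7.38 and KIF26A at 6.77, and KIF6 at 4.37 was the only kinesin gene below the lower quartile.

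After silencing, no kinesin probe set passed the adjusted test or the study's thresholds, and every adjusted limma p was 0.9999. At an unadjusted limma p under 0.05, 2 of 45 kinesin probe sets were higher and 4 were lower, against 1.54% and 1.49% of all probe sets. For 3 of 45 the silenced arrays were both above the controls, and for 11 of 45 both were below, against 14.5% and 15.1% of all probe sets. Among probe sets above the upper quartile, where 21 of the 45 lay, these shares were 15.9% and 23.5%. The 6 probe sets belonged to KIF3B and KIFC1 on the higher side and to KIF5A (2 probe sets), KIFC3 and KIF7 on the lower side. Without either control array, none of the 4 calls on the lower side held, and under the t-test of the methods with its minimum SD none of the 6 did. Of the 41 genes, 28 had a change below 0 and 13 above, with a median of -0.057, whereas 49.3% of all probe sets were below 0 with a median of 0.002. Of the 41 genes 20 lay above the upper quartile, where 58.1% of probe sets were below 0 with a median of -0.017. In a bulk sample, fewer cells that hold a message and less of it per cell cannot be told apart.

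**Figure D2:**
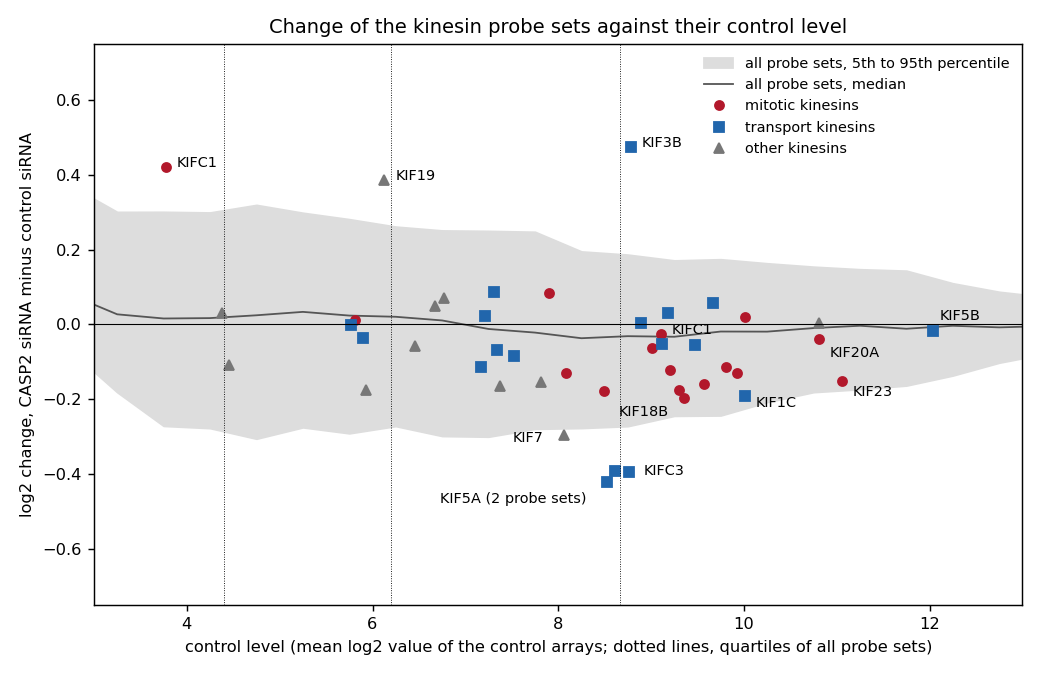
Log2 change (CASP2 siRNA minus control siRNA) of each kinesin probe set against its mean log2 value on the control arrays, coloured by class, over the range that holds the middle 90% of all probe sets at that level. Most kinesins lie inside the range, with KIF3B (0.47), KIF19 (0.39) and the dim KIFC1 probe set (0.42) above it and KIF5A, KIFC3 and KIF7 below it.

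The mitotic kinesins had small changes, mostly below 0. Of 13 genes, 11 were below 0, with a median of -0.12 and a range from -0.20 to 0.02, and 0 passed an unadjusted p under 0.05. Both silenced arrays lay below both control arrays for 3 genes (23.1%, against 23.5% of all probe sets above the upper quartile), and 0 genes lay above. Beside the 11 of 13, 58.1% of all probe sets above the upper quartile, where 10 of the 13 lay, were below 0. Another quantile normalization also gave 11 below 0 (median -0.10), with KIFC1 now just above 0 and KIF2B just below it. Centring each array on its median shifts every probe set by the same amount. It only brought KIF18A and KIF2B from just above 0 to just below it.

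By the probe set with the highest mean, the 3 mitotic genes without overlap were KIF4A, KIF23 and KIF11. KIF4A, a chromokinesin of chromosome arms and the spindle midzone, was at 9.63 and 9.51 on the control arrays and at 9.45 and 9.37 on the silenced arrays, a change of -0.16 (-0.43 to 0.11). KIF23 was at 11.08 and 11.02 against 10.99 and 10.81, a change of -0.15 (-0.45 to 0.14). KIF11 was at 9.98 and 9.87 against 9.86 and 9.74, a change of -0.13 (-0.41 to 0.14). In each of these the lower silenced array was the second, and each interval included 0. The promoters of all 3 are among those printed above. So are those of KIF20A and KIF18A, whose changes were -0.04 and 0.02 with overlapping groups.

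For several other mitotic genes the change rested on the second silenced array, where KIF18B, KIF15 and KIF14 lay farthest below their control means. KIF18B, a kinesin-8 of astral microtubules, was at 9.34 and 9.36 on the control arrays and at 9.34 and 8.96 on the silenced arrays (change -0.20, -0.61 to 0.22). KIF15, a kinesin-12 that helps to keep the spindle bipolar, was at 8.54 and 8.45 against 8.58 and 8.06 (-0.18, -0.71 to 0.35). KIF14, a cytokinesis kinesin, was at 8.04 and 8.13 against 8.19 and 7.73 (-0.13, -0.61 to 0.35). In all of these, for KIF18B by its brighter probe set, the first silenced array lay at or above the lower control array and only the second was low. Among motors at the centromere and on chromosomes, KIF2C (MCAK) had a change of -0.12 and KIF22 of -0.11. The other cytokinesis kinesins were nearer to 0, KIF20B at -0.06 and KIF20A, which was at 10.82, 10.79, 10.79 and 10.75 across the 4 arrays, at -0.04. KIF18A (0.02) and KIF2B (0.01) were the mitotic genes above 0.

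Array by array against the control mean, the median mitotic kinesin was at -0.007 on the first silenced array and at -0.20 on the second, and the second was lower than the first for 12 of 13 genes. For the transport kinesins these medians were -0.013 and -0.068, with the second array lower for 10 of 17. The other kinesins went the opposite way, at -0.18 and 0.075, with the second array lower for 2 of 11. Over all probe sets the second array was lower for 53.4%, and over probe sets above the upper quartile for 71.9%. Without the second silenced array 7 of 13 mitotic kinesins were below 0 with a median of -0.007, and without the first 12 of 13 were, with a median of -0.20. The second array is the one whose upper quartile was lowest, and the part of this in the mitotic values was not tested.

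**Figure D3:**
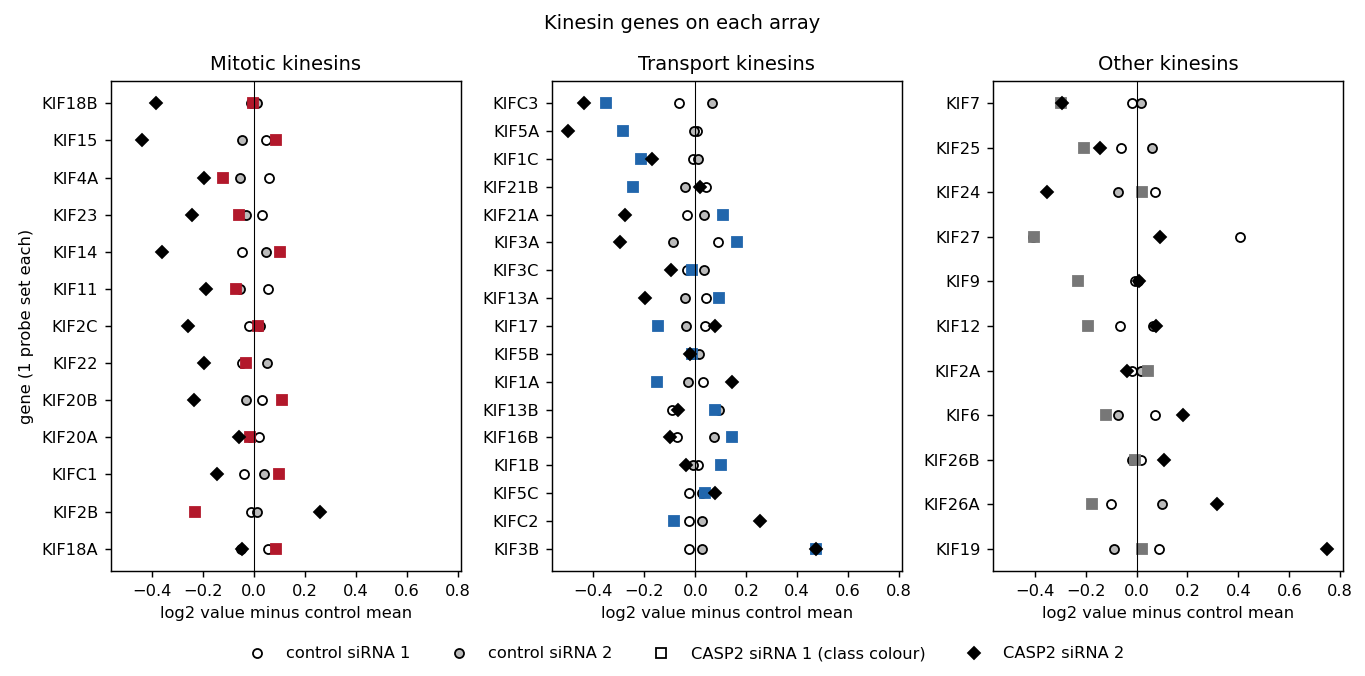
Deviation of each kinesin gene from its control mean (log2, x axis) on every array, by class, with 1 row per gene and 1 marker per array. The mitotic median is near 0 on the first silenced array (-0.007), where single genes run from -0.23 (KIF2B) to 0.11 (KIF20B), and 12 of 13 genes are below 0 on the second, while KIF3B is near 0.47 on both.

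The transport kinesins held the highest and the lowest change of the 41 genes. Of 17 genes, 11 were below 0, with a median of -0.036 and a range from -0.39 to 0.47. At an unadjusted p under 0.05, 1 gene was higher (KIF3B) and 2 were lower (KIF5A and KIFC3). Over all probe sets these shares were 1.54% and 1.49%. Both silenced arrays were above both controls for KIF3B and KIF5C (11.8%, against 14.5% of all probe sets). They were below both for KIF5A, KIFC3, KIF1C and KIF5B (23.5%, against 15.1% of all probe sets and 23.5% of those above the upper quartile). For KIF5B the groups were barely apart, at 12.019 and 12.046 against 12.018 and 12.01.

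KIF3B is a motor subunit of heterotrimeric kinesin-2, which drives intraflagellar transport in cilia and carries vesicles. It was at 8.76 and 8.81 on the control arrays and at 9.26 and 9.26 on the silenced arrays, so the groups were far apart and the silenced arrays nearly equal. The change was 0.47 (SE 0.090, 0.23 to 0.71), 1.39-fold. It had the lowest unadjusted limma p of any kinesin, and an adjusted p of 0.9999. Leaving out each array in turn gave changes of 0.45 to 0.50, and the unadjusted call was lost without the first control array and under the t-test of the methods with its minimum SD. The partners of KIF3B in the complex had smaller values. KIF3A, its usual motor partner, was at 7.43 and 7.25 against 7.51 and 7.05 (-0.07, -0.57 to 0.43), with the silenced arrays on either side of the controls. KIF3C, the alternative partner of KIF3A, had a change of -0.05 and the accessory subunit KIFAP3 of 0.05, and the homodimeric kinesin-2 KIF17 of -0.036. The intervals of KIF3C (-0.31 to 0.20) and KIF3B did not overlap, whereas those of KIF3A and KIFAP3 overlapped with that of KIF3B, and no difference between subunits was tested.

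Kinesin-1, which carries mitochondria, vesicles and other cargo, is made of heavy chains encoded by KIF5A, KIF5B and KIF5C and of light chains. KIF5A, a heavy chain found mainly in neurons, had 2 probe sets that gave nearly the same picture. The first was at 8.62 and 8.60 on the control arrays and at 8.32 and 8.11 on the silenced arrays, a change of -0.39 (SE 0.11, -0.70 to -0.089). The second was at 8.50 and 8.56 against 8.14 and 8.08, a change of -0.42 (SE 0.093, -0.67 to -0.17). Both silenced arrays were below both control arrays in each. None of the 4 neuron markers separated the groups, and their changes ran from -0.05 to 0.05, with SNAP25 at 8.45 in control cells, SYT1 at 6.83, RBFOX3 at 6.15 and STMN2 at 4.76.

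The other kinesin-1 subunits were close to 0. KIF5B was at 12.02 and 12.05 against 12.02 and 12.01, a change of -0.019 (-0.26 to 0.22), so its 4 arrays were nearly level. KIF5C, also a neuronal heavy chain, was at 9.64 and 9.69 against 9.71 and 9.75, a change of 0.058 (-0.19 to 0.30). The light chains KLC1 to KLC4 had changes of -0.008, 0.017, 0.053 and -0.033, and for each of them the groups overlapped.

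**Figure D4:**
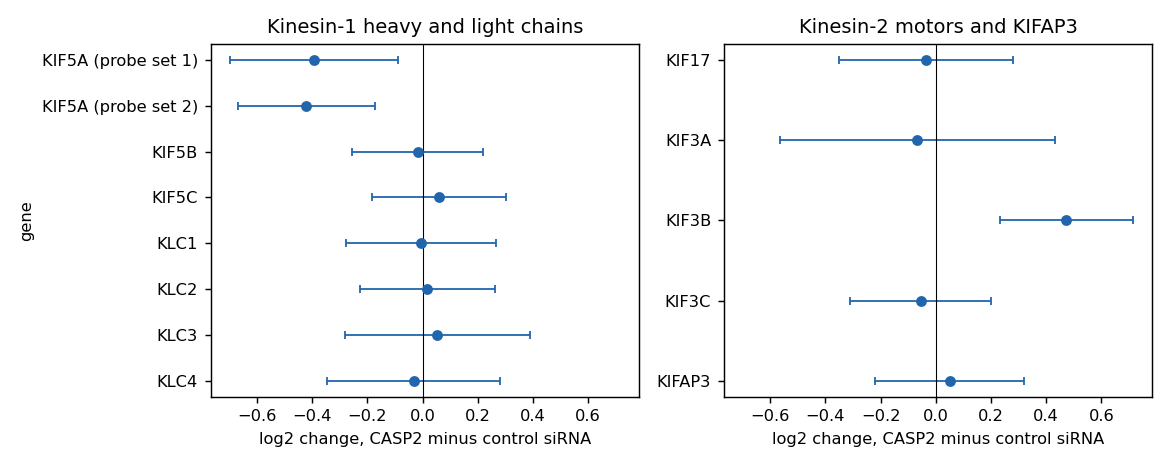
Log2 change with its 95% interval (limma) for the subunits of kinesin-1 and kinesin-2, 1 point per probe set. KIF5A (-0.39 and -0.42) and KIF3B (0.47) have intervals that leave out 0, and the other heavy chains, light chains and partners have intervals that include it.

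KIFC3, a minus-end directed kinesin-14 with roles at cell junctions and in vesicle transport, was at 8.70 and 8.83 on the control arrays and at 8.41 and 8.33 on the silenced arrays. The change was -0.39 (SE 0.10, -0.67 to -0.12), with both silenced arrays below both controls. The neuronal kinesin-14 KIFC2 had a change of 0.09 and overlapping groups. Of the kinesin-3 motors, which carry vesicles, endosomes and mitochondria, KIF1C was at 10.00 and 10.02 against 9.80 and 9.84, a change of -0.19 (-0.43 to 0.05) with each group narrow and the groups apart. KIF1B (0.03), KIF1A (-0.002), KIF13A (-0.05), KIF13B (0.004) and KIF16B (0.02) had overlapping groups. The kinesin-4 motors KIF21A and KIF21B were at -0.08 and -0.11, also with overlap.

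Of the 11 other kinesins, 6 were below 0, with a median of -0.057 and a range from -0.30 to 0.39. KIF7, a kinesin-4 that organizes the tip of the primary cilium and acts in Hedgehog signalling, was at 8.04 and 8.08 against 7.76 and 7.77, with both groups tight and apart. Its change was -0.30 (SE 0.089, -0.53 to -0.057). It was at an unadjusted p under 0.05 in limma. That call was lost when the replicate number was fitted as a block and under the t-test of the methods with its minimum SD. Leaving out each array in turn gave changes of -0.31 to -0.28. KIF27, a close relative of KIF7, had control arrays (8.22 and 7.41) that differed more from each other than the groups did. Its silenced arrays were at 7.41 and 7.91 and its change was -0.15 (-1.04 to 0.73).

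KIF19, a kinesin-8 that limits the length of cilia, had the highest change of this class at 0.39 (-0.32 to 1.09), but only the second silenced array was high, at 6.88, against 6.22 and 6.04 on the control arrays and 6.15 on the first silenced array. KIF25 was at 5.87 and 5.99 against 5.72 and 5.78 (-0.17), below both controls, and its probe set lies below the median of the array. The antisense RNA KIF25-AS1 was at 6.06 and 6.11 against 6.05 and 6.23 (0.06, with overlap). KIF24, which acts at centrioles, was at -0.17 with overlapping groups. KIF26A (0.07), KIF26B (0.05), KIF12 (-0.057), KIF9 (-0.11), KIF6 (0.03) and KIF2A (0.004) also overlapped.

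For 4 genes with 2 probe sets, the probe sets agreed for KIF5A and KIF18B and differed for KIFC1 and KIF22. KIFC1, the minus-end directed kinesin-14 that gathers spindle poles, was at 9.07 and 9.15 on the control arrays and at 9.21 and 8.96 on the silenced arrays by its bright probe set, a change of -0.02 with overlap. Its dim probe set, below the lower quartile, was at 3.81 and 3.74 against 4.38 and 4.01, a change of 0.42 (0.007 to 0.83). Leaving out each array gave 0.23 to 0.61 for this probe set, with 0.23 without the first silenced array and 0.61 without the second. Its unadjusted call was lost without the first silenced array, without either control array, after another quantile normalization, with centred arrays and under the t-test of the methods. The second KIF18B probe set gave -0.18, beside -0.20 for the first. Unlike the first, it had both silenced arrays (9.281 and 8.963) below both control arrays (9.301 and 9.297), the first of them only narrowly. The second KIF22 probe set gave 0.08, beside -0.11, and its control arrays, at 8.05 and 7.75, lay within the range of its silenced arrays, 7.71 and 8.26.

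Set against each other, the median change of the mitotic kinesins was lower than that of the transport kinesins by 0.087 (medians of -0.12 and -0.036). The gap of the median levels did not narrow, at 0.64 and 0.55 on the control arrays and 0.93 and 0.64 on the silenced arrays. These measures rest on different genes. The median transport level on the silenced arrays was that of KIFC3, and the median transport change that of KIF17. Array by array, the mitotic minus transport difference of the median log2 levels had an SD between replicates of 0.156. That is a spread of levels and not of changes, so it cannot say whether -0.087 exceeds the spread between arrays. Whether the classes differ in their changes was not tested. Without the second silenced array the difference of the median changes was 0.006, and without the first it was -0.13. The changes of mitotic kinesins covered -0.20 to 0.02, and those of transport kinesins -0.39 to 0.47.

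Genes that work with the kinesins were read from the same fit. Of 23 partners of mitosis, such as centromere proteins, mitotic kinases and cytokinesis proteins, 19 were below 0, with a median of -0.081, 0 passed an unadjusted p under 0.05, and both silenced arrays were below both controls for 8 and above for 1. All but 1 of these partners lay above the upper quartile, where 58.1% of probe sets were below 0 and 23.5% had both silenced arrays below both controls (15.1% over all probe sets). The kinetochore protein NUF2 had the largest change, at 8.35 and 8.40 against 8.18 and 7.79 (-0.39, -0.81 to 0.034), followed by the mitotic kinase CDK1 (-0.24) and the abscission protein CEP55 (-0.18). CENPE, the kinesin-7 of kinetochores whose symbol does not begin with KIF, was at 9.45 and 9.36 against 9.40 and 9.18 (-0.11, with overlap). For 22 of 23 partners the second silenced array was below the first, and the medians were 0.019 on the first and -0.12 on the second. CHR letters were in 14 of 17 of these genes with a window (82.4%), and in 1 of 14 transport partners (7.14%). They were in 1 of 20 dynein and dynactin genes (5%) and in 27.9% of all genes with a window. The letters were not linked to any change here either.

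Of 20 adaptors and light chains of transport, 18 were measured, 8 were below 0 and the median was 0.009. The largest changes were in the kinesin-1 adaptor FEZ1 (-0.23), in PLEKHM2, which links kinesin-1 to lysosomes (-0.14), and in MAP7, which recruits kinesin-1 to microtubules (0.12). Dynein and dynactin, the main minus-end motor and its cofactor, had 21 of 23 genes measured, of which 10 were below 0 with a median of 0.010. With 1 probe set per gene, DYNLL1 (0.13), PAFAH1B1 (0.11) and DYNLRB2 (-0.10) had the largest changes. Over all 23 probe sets of the measured genes the lowest change was -0.38, in a probe set that was not the brightest of its gene. In both lists 0 genes passed an unadjusted p under 0.05, so FEZ1, which was at 5.04 and 5.00 against 4.87 and 4.71, had an interval that included 0 (-0.51 to 0.047). On the second silenced array the median dynein gene was at -0.043 and the median transport adaptor at -0.012, beside -0.20 for the mitotic kinesins.

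**Figure D5:**
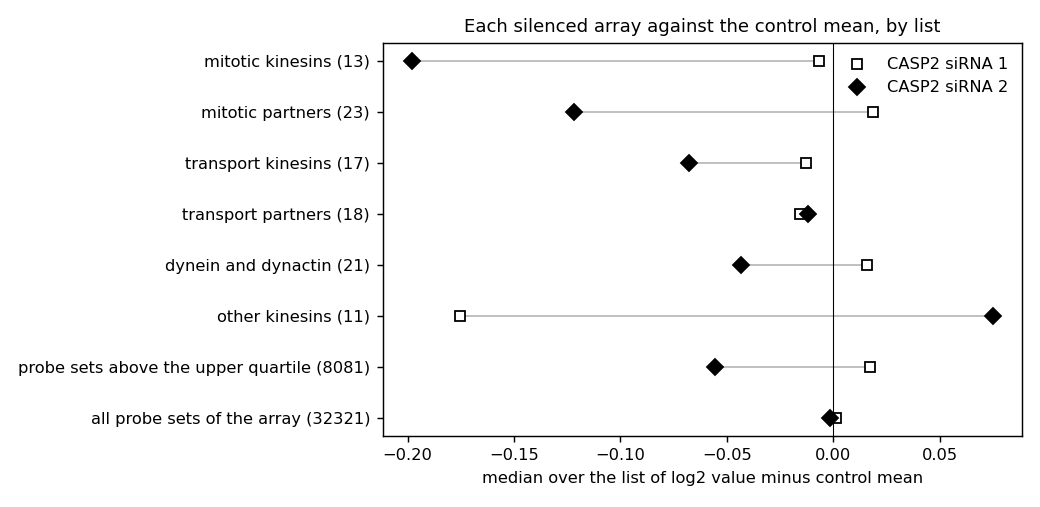
Median deviation from the control mean (log2) of each gene list on the first and second CASP2 siRNA arrays, beside the medians of all probe sets and of those above the upper quartile. The mitotic kinesins (-0.007 and -0.20) and mitotic partners (0.019 and -0.12) drop between the arrays, the transport lists and dynein differ little, and the other kinesins go from -0.18 to 0.075.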

How the data were processed

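Total RNA of U87MG cells was measured on 4 arrays, 2 per group, with groups taken from the treatment label. The authors deposited RMA-processed values on the log2 scale that cover 32321 probe sets on every array (made with RMA by the submitters' processing notes, version not given in the sources used here). RMA equalizes probe distributions between arrays, so a shift of all genes is largely removed, and folds near background are compressed. Precision is limited by having 2 arrays per group. There were 0 unmapped value columns.

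Gene symbols came from the platform annotation, where 19158 probe sets had 1 symbol, 1388 several and 11775 none. Symbols were checked through the RefSeq gene table, and 0 of the kinesin symbols changed. Silenced and control arrays were compared by limma 3.58.1 in R 4.3.3 (linear model with eBayes, two-sided, no block), with 2 residual and 2.47 prior degrees of freedom, and p-values were adjusted by Benjamini and Hochberg over all probe sets. The fit was tested on simulated data. No gene set was tested and lists are described by counts and medians, with 1 probe set per gene, the one with the highest mean over all arrays, and the SD between replicates of a median pooled over both groups. Tables, promoter letters and plots were made with Python 3.11.15, pandas 2.3.3 and matplotlib 3.10.9.

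The members, classes and lists were chosen with earlier results of these data known. Named with values were the probe sets at an unadjusted p under 0.05 or past the study's thresholds, those without overlap and a log2 change over 0.2 in size, the 5 brightest genes and the 3 largest changes in each direction of each class, genes with more than 1 probe set, class examples, and the 3 largest changes of each partner list. Other kinesins are named so that every member is accounted for. Alternatives were the methods' t-test with a minimum SD, trend and robust eBayes, another quantile normalization, centring on the median, leaving out dim probe sets, linear means, a replicate block, all probe sets per gene, another class membership (KIF2A as mitotic, KIF15 and KIF2B left out) and leaving out each array.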

Additional observations from a re-analysis of the deposited data

How the results depend on the processing

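No kinesin probe set passed the adjusted test under any alternative run, and of 351 values of the 32 named kinesin probe sets under alternatives, 27 in 14 probe sets had the other sign, none of them a value called at an unadjusted p under 0.05. The count of kinesin probe sets at an unadjusted p under 0.05 on the higher side, 2, was 0 by the methods' t-test with a minimum SD, 1 after another quantile normalization, 1 with arrays centred on the median and 1 without dim probe sets, and 0 to 4 when each array was left out. On the lower side, 4, it was 0 by the methods' t-test and 0 to 11 when each array was left out, with 11 without the first CASP2 siRNA array and 0 without either control array. The count past the study's thresholds on the higher side, 0, was 0 to 1 when each array was left out, and was 1 without the first and 1 without the second silenced array. Of the mitotic kinesins 7 to 12 of 13 were below 0 when each array was left out, with 7 without the second CASP2 siRNA array. With 1 array left in a group, its spread was taken from the other group. The causes of these differences were not tested.

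Arrays with the same replicate number showed no common deviation (r = 0.0198 over probe sets), so the number was not taken as a pairing. With the replicate block, 2 kinesin probe sets were higher and 3 lower at an unadjusted p under 0.05, since KIF7 no longer passed, and CASP2 was at -2.06. The block left the class medians as they were, at -0.12 for the mitotic and -0.036 for the transport kinesins. KIF1C (-0.19) passed an unadjusted p under 0.05 only with the trend and robust options of limma.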
